A study of Mus musculus with 16 samples.

Results

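Replication-dependent histone genes were followed in hippocampal RNA of cbp+/- and wild-type mice after environmental enrichment or in standard cages. The members were the probe sets assigned to a single gene whose symbol belongs to the histone cluster series (Hist1h to Hist4h). The probe annotation carries current symbols, of which 0 match that older form, so each gene was recognised by its gene number through the older symbols in RefSeq. This gave 31 genes with 1 probe set each, out of 19936 genes on 21780 probe sets with a single symbol. By class there were 5 linker H1 genes, 5 H2A, 11 H2B, 3 H3 and 7 H4 genes. By cluster, 23 belonged to Hist1 on chromosome 13, 4 to Hist2, 3 to Hist3 and 1 to Hist4, and 1 of the 31, H2bu1-ps, is annotated as a transcribed pseudogene. RefSeq lists 70 such genes. Another 38 were read only by probe sets assigned to several genes and 1 by no named probe set. Many gene copies within the H2A, H2B, H3 and H4 classes are nearly identical, and 19 of the 31 members also appear on shared probe sets. Part of a member's signal may therefore come from other copies.

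Core histones H2A, H2B, H3 and H4 form the protein spool of the nucleosome, and H1 binds the DNA that enters and leaves it. The replication-dependent genes lie in clusters, lack introns, and give mRNAs that end in a stem-loop in place of a poly(A) tail. The stem-loop binding protein Slbp governs their processing, and most are made in S phase when new DNA needs packing. In the adult hippocampus most cells are neurons and glia that no longer divide, while progenitors of the dentate gyrus still do. Some cluster genes, among them H1f2, H2bc4 and H2bc21, are also transcribed in non-dividing cells. CBP, the product of Crebbp, is a coactivator that acetylates histones.

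There were 3 arrays of cbp+/- mice after environmental enrichment (CBP_EE), 5 of cbp+/- mice in standard cages (CBP_SC), 3 of wild-type littermates after enrichment (WT_EE) and 5 of wild-type littermates in standard cages (WT_SC). All mice were females of 3 months from an F2 background of C57BL/6J and DBA. Enrichment lasted 2 weeks, in a large box with running wheels, tubing and toys, and tissue was taken 16 hours or more after the box had last been rearranged. Each array read equal amounts of hippocampal RNA from 4 mice, 64 mice in all, and arrays carry numbers from 1 to 5 in their titles. Numbers 4 and 5 exist only among standard-cage arrays, and the labels do not say what arrays of the same number share. In pooled whole tissue, fewer cells of a type and less RNA per cell cannot be told apart.

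The Crebbp probe set gave no lower log2 signal in the arrays labelled cbp+/-. After enrichment it averaged 9.36 ± 0.025 in CBP_EE and 9.26 ± 0.082 in WT_EE (n = 3 each, SD), with a log2 difference of 0.10 (adjusted p = 0.976, SE 0.13). In standard cages it averaged 9.57 ± 0.22 in CBP_SC and 9.43 ± 0.18 in WT_SC (n = 5 each, SD), with a log2 difference of 0.14 (adjusted p = 1.00, SE 0.099). The sources used here do not say whether its probes lie in the altered stretch of the gene, so every genotype below is that of the label. The arrays' median intensities lay between 77.7 and 82.4 in CBP_EE, 76.7 and 80.2 in CBP_SC, 79.7 and 85.5 in WT_EE, and 77.3 and 79.1 in WT_SC. The interquartile range of log2 values was 2.30 to 2.43 in WT_EE, against 2.51 to 2.59 in WT_SC. Of the members, 17 of 31 were dim, with a mean log2 signal below 6.32, the median over all deposited probe sets.

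None of the 31 histone probe sets differed between groups in any of 7 comparisons: 0 of 31 passed an adjusted p of 0.05 in limma, where 0% of all 21780 probe sets passed in each. In this fit, which leaves the array number out, 1 member passed an unadjusted p under 0.05 between CBP_EE and CBP_SC (2.82% of all probe sets). At that p, 4 passed between WT_EE and WT_SC (17.8% of all). None passed between CBP_SC and WT_SC (0.987% of all), between CBP_EE and WT_EE (5.23% of all) or for the interaction, the difference between the housing effects of both genotypes (2.66% of all). Averaged over genotypes, 2 passed between enrichment and standard cages (19.1% of all), and averaged over housings 0 passed between cbp+/- and wild type (3.91% of all). The median log2 difference of the members was 0.037 between CBP_EE and CBP_SC, beside 0.010 over all probe sets, and 0.012 between WT_EE and WT_SC, beside 0.029 over all. It was 0.034 between CBP_EE and WT_EE, beside -0.020 over all, and 0.008 between CBP_SC and WT_SC, beside 0.004 over all. These medians are near 0, and single arrays turned their sign. Between CBP_EE and CBP_SC the median was -0.018 without CBP_EE_3 (11 of 31 higher, against 21 with all arrays) and -0.006 without CBP_SC_1. Between WT_EE and WT_SC it was -0.009 without WT_EE_3 and -0.010 without WT_SC_4. Between CBP_EE and WT_EE it was -0.047 without CBP_EE_3 (8 of 31 higher, against 22). Between CBP_SC and WT_SC it was -0.037 without CBP_SC_5 (6 of 31 higher, against 19), -0.012 without WT_SC_1 and -0.013 without WT_SC_2, and 26 of 31 were higher without WT_SC_5.

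The enrichment groups have no arrays numbered 4 and 5, and the count of calls between housings depended on which arrays were compared. On arrays numbered 1 and 2 only, 7 of 31 members were higher in WT_EE than in WT_SC at an adjusted p under 0.05 (29.9% of all probe sets passed, in either direction), and 6 were higher after enrichment averaged over genotypes (25.1% of all). H2bc9, H2bc3, H4c3 and H4f16 were in both sets. Between CBP_EE and CBP_SC 0 of 31 passed on these arrays (0% of all). The plot of the fitted differences shows each member with its error.

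**Figure D1:**
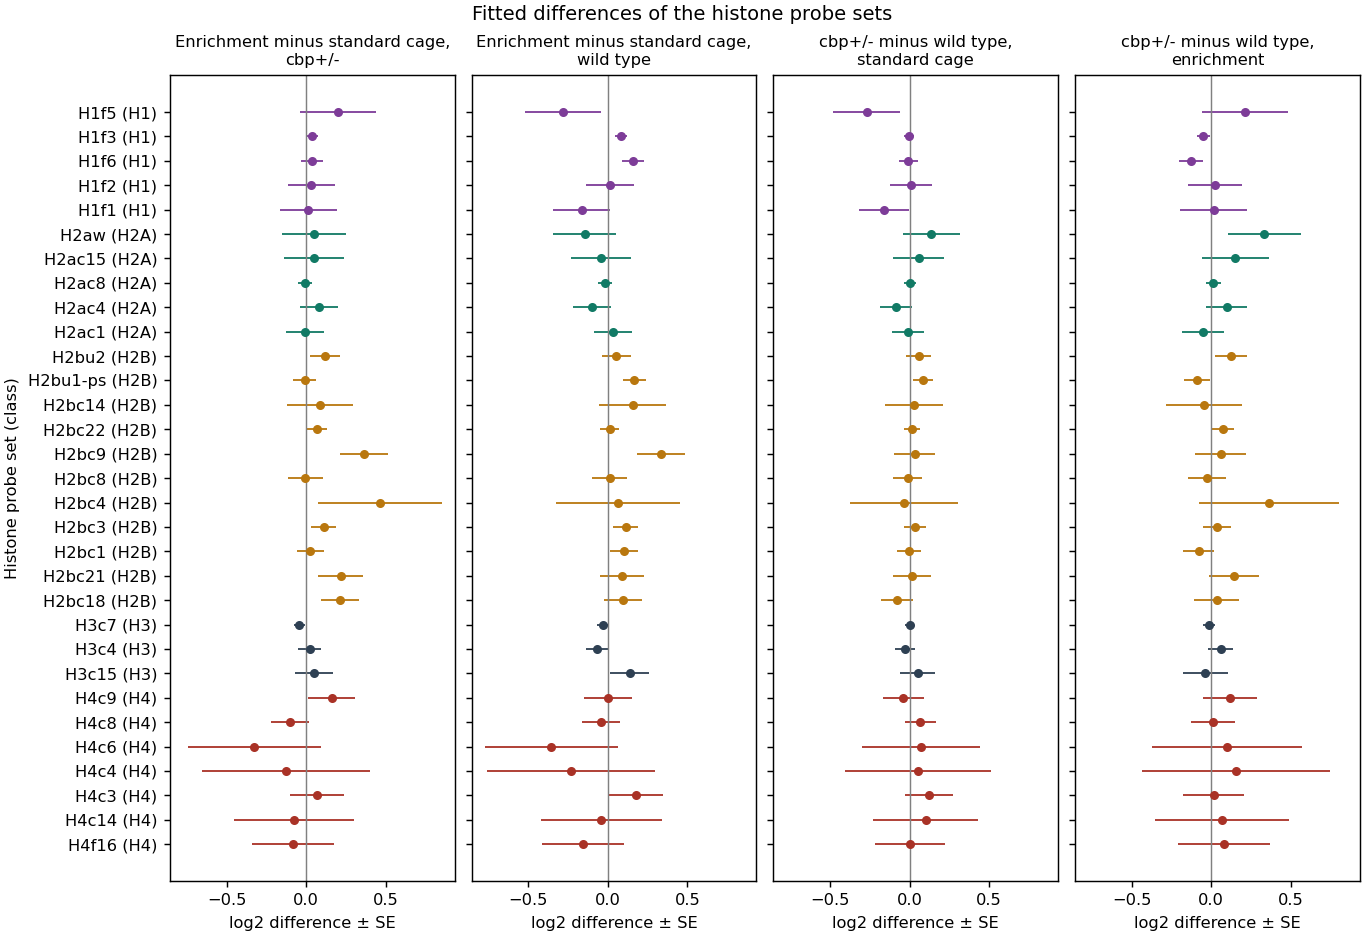
Fitted log2 differences (x axis) of the 31 histone probe sets (rows, coloured by class) in 4 comparisons, as points with bars of ± 1 SE from the limma fit. H2bc9 stands right of 0 in both enrichment comparisons, at 0.36 and 0.33, and the widest bars belong to H4c4, H4c6, H4c14 and H2bc4.

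The H2B members, whose genes encode the partner of H2A in the nucleosome, leaned towards higher signal after enrichment. Of 11 probe sets, 9 were higher in CBP_EE than in CBP_SC (median log2 difference 0.11) and 11 were higher in WT_EE than in WT_SC (median 0.10), with 0 past the adjusted threshold. Over all probe sets, 55.0% were higher in CBP_EE than in CBP_SC and 58.4% in WT_EE than in WT_SC. Among dim probe sets of any gene, 69.2% were higher in CBP_EE than in CBP_SC and 86.7% in WT_EE than in WT_SC, and 7 of the 11 H2B members are dim. After quantile normalization 8 of 11 were higher in either comparison, with medians of 0.07 between CBP_EE and CBP_SC and 0.02 between WT_EE and WT_SC. With array medians subtracted it was 8 of 11 and 7 of 11. With all arrays, the 7 probe sets shared by several H2B genes did not show this lean in wild type. Their median log2 difference was 0.11 between CBP_EE and CBP_SC and -0.05 between WT_EE and WT_SC. Their median log2 signal on arrays numbered 1, 2 and 3 was 7.40, 7.54 and 7.94 in WT_EE, against 7.32, 7.23 and 7.73 in WT_SC. WT_SC_4 and WT_SC_5, which have no enrichment array of their number, stood at 7.64 and 8.40.

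H2bc9 (Hist1h2bh) had the smallest p of any member between CBP_EE and CBP_SC and for enrichment averaged over genotypes, and the third smallest between WT_EE and WT_SC, after H1f6 and H2bu1-ps. Its log2 signal was 7.84, 7.94 and 8.05 in CBP_EE, against 7.65, 7.74, 7.33, 7.37 and 7.83 in CBP_SC. All 3 enrichment arrays lay above all 5 standard-cage arrays, though 7.84 and 7.83 nearly met. In wild-type pools it was 7.83, 7.78 and 8.04 in WT_EE, against 7.29, 7.50, 7.87, 7.30 and 7.80 in WT_SC, where the groups overlapped and 1 of 3 enrichment arrays lay above all 5 standard-cage arrays. The log2 difference was 0.36 (SE 0.15, adjusted p = 0.999) between CBP_EE and CBP_SC and 0.33 (SE 0.15, adjusted p = 0.254) between WT_EE and WT_SC. Averaged over genotypes it was 0.35 (SE 0.10, adjusted p = 0.155), a 1.27-fold difference.

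H2bc4 (Hist1h2bc) and H2bc21 (Hist2h2be) are the H2B genes known for transcripts outside S phase. H2bc4 stood at 8.71, 8.53 and 9.60 in CBP_EE, against 8.38, 8.33, 7.96, 8.32 and 9.45 in CBP_SC. In wild-type pools it stood at 8.0, 8.50 and 9.26 in WT_EE, against 8.62, 8.63, 7.87, 8.13 and 9.37 in WT_SC. A single array was highest in each group, numbered 3 after enrichment and 5 in standard cages, and the range over 16 arrays was 3.33-fold. H2bc21 stood at 6.54, 6.49 and 6.70 in CBP_EE, against 6.39, 6.48 and 6.43 in WT_EE. These groups did not overlap, and the difference was 0.14 on the log2 scale (SE 0.16, adjusted p = 0.975). Only 2 of 31 members, H2bc21 and H2bc22 (Hist1h2bp), had every CBP_EE array above every WT_EE array, where 3.53% of all probe sets did. Likewise 2 of 31, H2bc9 and the linker gene H1f3 (Hist1h1d), had every CBP_EE array above every CBP_SC array, where 1.64% of all did, and 0 of 31 were separated this way between WT_EE and WT_SC (9.16% of all) or between CBP_SC and WT_SC (0.174% of all). No member had every array of the first group below every array of the second: 0 of 31 between CBP_EE and CBP_SC (1.25% of all), WT_EE and WT_SC (2% of all), CBP_SC and WT_SC (0.0872% of all) or CBP_EE and WT_EE (6.85% of all). H2bc1 (Hist1h2ba), the testis H2B, was dim at a mean of 5.20 ± 0.087 in CBP_EE, 5.17 ± 0.12 in CBP_SC, 5.27 ± 0.20 in WT_EE and 5.17 ± 0.077 in WT_SC (SD, n = 3, 5, 3 and 5). H2bu2 (Hist3h2ba), from the small Hist3 cluster, averaged 5.95 ± 0.24 in CBP_EE, 5.84 ± 0.046 in CBP_SC, 5.83 ± 0.086 in WT_EE and 5.78 ± 0.13 in WT_SC.

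**Figure D2:**
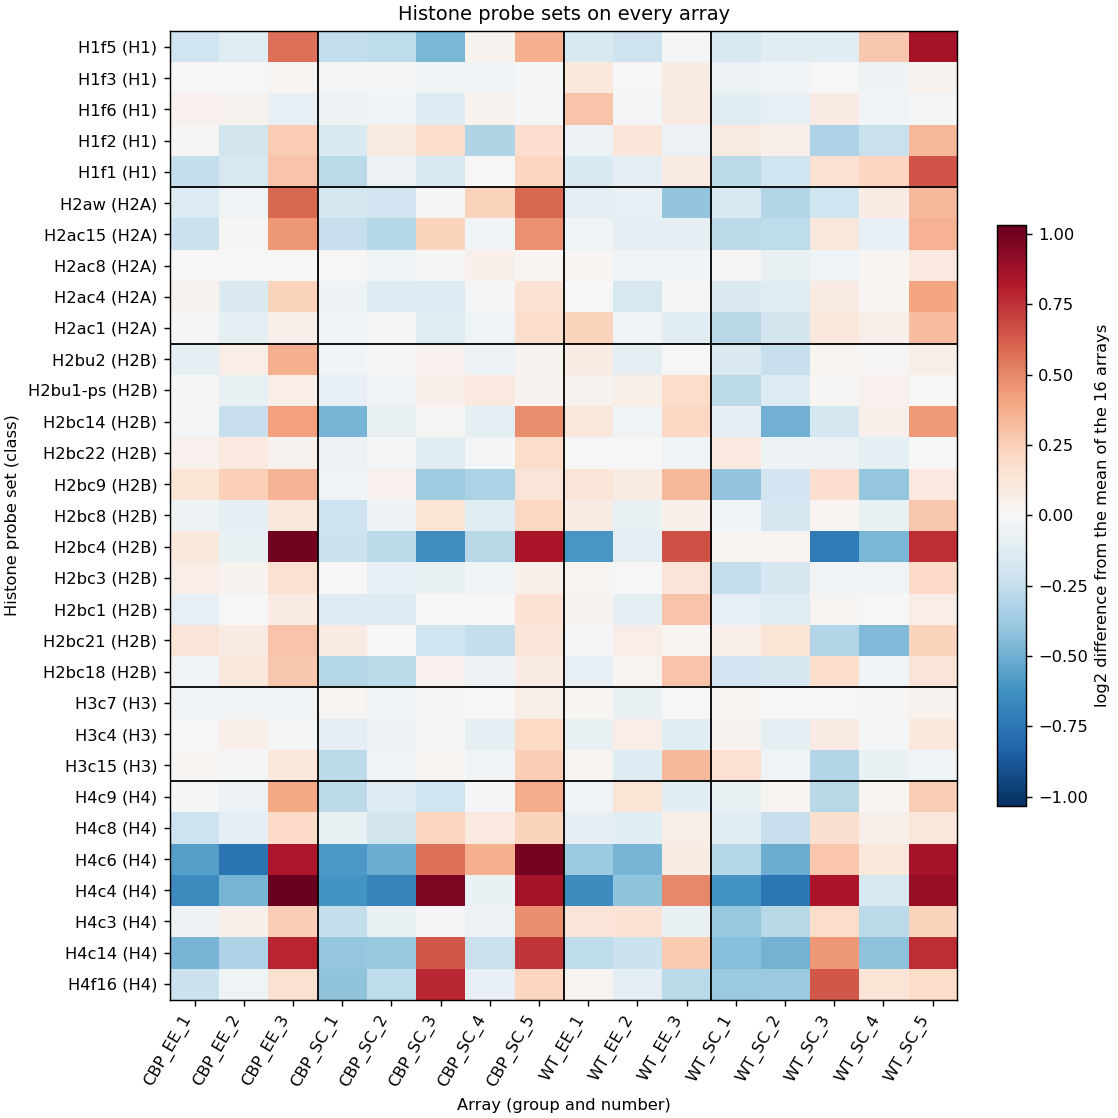
Log2 signal of the 31 histone probe sets (rows, by class) on the 16 arrays (columns, by group and number) as the difference from each probe set's mean, red above and blue below. H4c4, H4c6 and H4c14 are red on the arrays numbered 3 and 5 and blue on those numbered 1 and 2 in each group that has them.

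The H4 genes, which encode the partner of H3, include the member with the widest range. H4c4 (Hist1h4d) had a log2 signal of 8.04, 8.22 and 9.73 in CBP_EE, 8.08, 8.01, 9.67, 8.63 and 9.56 in CBP_SC, 8.05, 8.28 and 9.19 in WT_EE, and 8.08, 7.95, 9.54, 8.53 and 9.60 in WT_SC, arrays being listed by number. The groups overlapped, and within each group the arrays numbered 1 and 2 were the lowest. Its highest array was 3.43-fold above its lowest. H4c14 (Hist2h4) stood at 7.97, 8.13 and 9.24 in CBP_EE, 8.05, 8.06, 9.09, 8.22 and 9.19 in CBP_SC, 8.19, 8.23 and 8.72 in WT_EE, and 8.01, 7.96, 8.90, 8.03 and 9.21 in WT_SC. H4c6 (Hist1h4f) stood at 6.09, 5.91 and 7.50 in CBP_EE, 6.07, 6.15, 7.23, 7.03 and 7.65 in CBP_SC, 6.28, 6.18 and 6.74 in WT_EE, and 6.37, 6.15, 6.95, 6.78 and 7.52 in WT_SC. Within each group both were highest on the arrays numbered 3 and 5, and H4c6 stood higher on those numbered 4 than on those numbered 1 and 2. Between groups the H4 differences were small beside this spread: for H4c4, -0.13 (SE 0.53, adjusted p = 0.999) between CBP_EE and CBP_SC and -0.23 (SE 0.53, adjusted p = 0.844) between WT_EE and WT_SC. Of 7 H4 probe sets, 5 were lower in either enrichment comparison. On arrays numbered 1 and 2 only, 4 of 7 were higher in CBP_EE than in CBP_SC and 6 of 7 in WT_EE than in WT_SC, and the H4c4 differences turned to 0.09 (adjusted p = 0.785) and 0.15 (adjusted p = 0.252). H4f16 (Hist4h4), the lone gene of its cluster, averaged 6.92 ± 0.19 in CBP_EE, 7.0 ± 0.47 in CBP_SC, 6.84 ± 0.15 in WT_EE and 6.99 ± 0.43 in WT_SC.

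**Figure D3:**
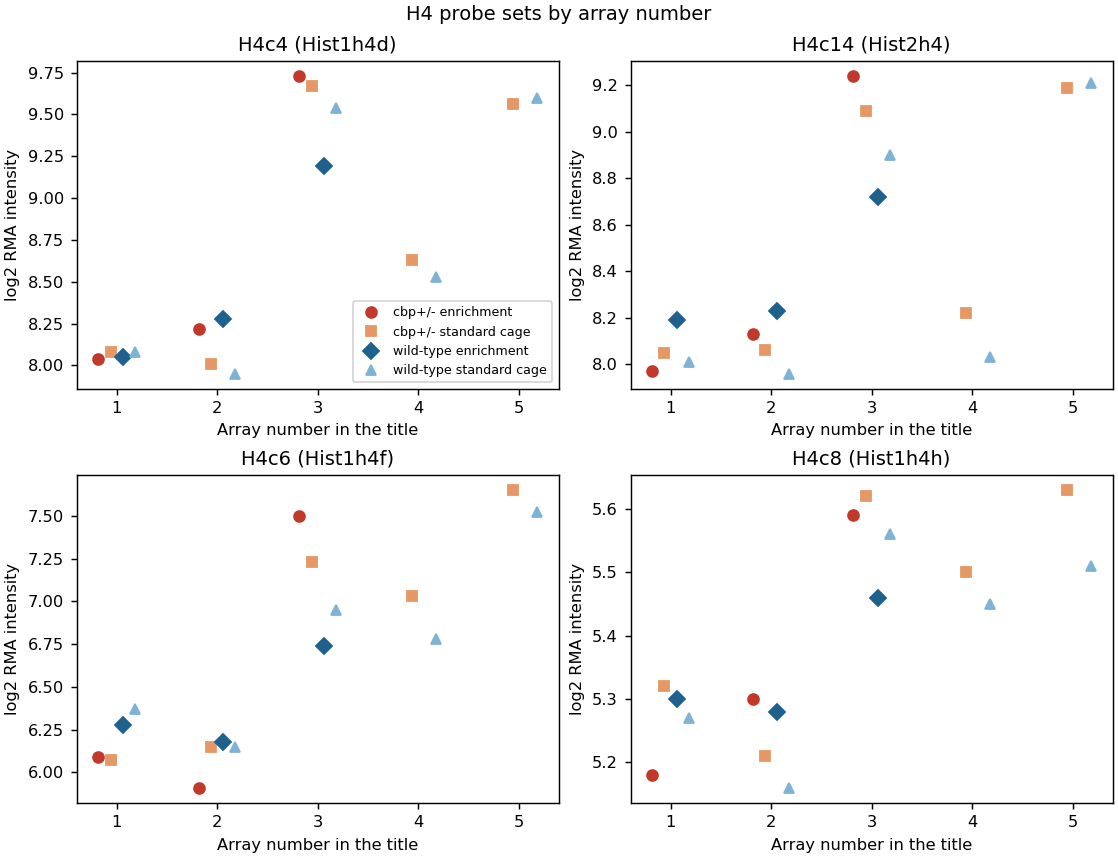
Log2 RMA intensity (y axis) of 4 H4 probe sets against the array number in the title (x axis), 1 point per array, marked by group. For H4c4 the arrays numbered 1 and 2 lie between 7.95 and 8.28, those numbered 4 at 8.53 and 8.63, and those numbered 3 and 5 between 9.19 and 9.73.

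The members were therefore also tested against the array number, by limma's F test on its 5 levels with group in the model, a test added after the values had been seen. Of the histone genes 10 of 31 differed with the number, 32.3%, where 7.19% of all probe sets did (1565 of 21780). They were 4 H4 genes (H4c4, H4c14, H4c6 and H4c8), 3 H2B genes (H2bc18, H2bc14 and H2bc8), the linker genes H1f1 and H1f5, and H2ac15 of the H2A class, with 0 of 3 H3 genes. Over the members the number held a median of 52.5% of the variance, beside 30.1% over all probe sets, and the group held 9.75%, beside 20.1%. Number and group overlap in part, because numbers 4 and 5 occur only in standard cages. The test also gives each number a single level over both housings, though the numbers were not taken to pair housings. Over all probe sets, same-numbered arrays of both housings correlated at -0.04 to 0.37 in cbp+/- and -0.39 to -0.01 in wild type. Over the members they correlated at 0.44 to 0.75 and 0.09 to 0.43. Within standard cages alone 58.1% of the members passed, beside 34.5% of all probe sets.

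H4c4 had the smallest adjusted p of the members in this test, 0.000259, and the number held 96.6% of its variance, the group 2.17%. Its mean log2 signal was 8.06 on arrays numbered 1, 8.11 on 2, 9.53 on 3, 8.58 on 4 and 9.58 on 5. H4c14 followed with an adjusted p of 0.000582 and means of 8.05, 8.10, 8.99, 8.13 and 9.20. H4c6 (adjusted p = 0.00358) averaged 6.20, 6.10, 7.11, 6.90 and 7.58 on numbers 1 to 5. H4c8 (Hist1h4h, adjusted p = 0.0108) averaged 5.27, 5.24, 5.56, 5.47 and 5.57. In each of these 4 genes the means on numbers 1 and 2 were the lowest, also within standard cages. Which of numbers 3 and 5 was higher varied within standard cages, where every number has both genotypes: H4c4 averaged 9.60 on 3 and 9.58 on 5, and H4c8 5.59 and 5.57, while H4c14 averaged 9.0 and 9.20 and H4c6 7.09 and 7.58. H2bc18 (Hist2h2bb, adjusted p = 0.00344) averaged 6.03, 6.10, 6.38, 6.14 and 6.29 on numbers 1 to 5, and 6.30 on 3 and 6.29 on 5 within standard cages. The linker genes H1f1 (adjusted p = 0.022) and H1f5 (adjusted p = 0.042) were highest on number 5, at means of 7.23 and 7.53, against 6.56 and 6.72 on number 1. The other 3 genes past the threshold, H2ac15, H2bc14 and H2bc8, had adjusted p of 0.024 to 0.048.

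Settings moved how many members passed but not whether H4c4 did. Over 27 alternatives its adjusted p was at most 0.0127. The count of members was 3 without the arrays numbered 1 (1.95% of all probe sets), 4 without those numbered 2 (1.53%), 19 without those numbered 3 (27.6%), 7 without those numbered 4 (3.84%) and 5 without those numbered 5 (2.73%). Within standard cages alone, where each number has 1 array per genotype, it was 18, beside 34.5% of all probe sets, and on arrays numbered 1 to 3 alone it was 4, beside 0.992%. Single arrays moved it too. The count was 6 without WT_SC_1 (4.3% of all probe sets), WT_SC_2 (4.02%) or CBP_SC_5 (2.89%), and 5 without WT_SC_4 (3.29%), WT_SC_5 (3.01%) or CBP_SC_4 (3.32%). It was 14 without WT_EE_3 (13.7%). The share of all probe sets mostly moved with the members' count, but not in each setting: 3 members went with 1.95% and 4 with 1.53%.

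Sequences upstream of the genes that followed the number are shown because histone classes differ in their promoter elements. RefSeq windows of 300 bases (250 before to 50 after the start, GRCm38.p6) were at hand for 26 of 31 members, and 4 are printed: the 3 members with a window and an adjusted p under 0.01 in the test of the number, and H2bc9. They lie at chr13:23581318-23581617 on the plus strand (H4c4), chr3:96269450-96269749 on the plus strand (H2bc18), chr13:23551619-23551918 on the minus strand (H4c6) and chr13:23543395-23543694 on the minus strand (H2bc9), and read 5′ to 3′ along the gene. Capitals mark the letters searched on both strands: the octamer ATTTGCAT, the TATA box TATAAA, the CCAAT box CCAAT and the H1 box AAACACA.
H4c4: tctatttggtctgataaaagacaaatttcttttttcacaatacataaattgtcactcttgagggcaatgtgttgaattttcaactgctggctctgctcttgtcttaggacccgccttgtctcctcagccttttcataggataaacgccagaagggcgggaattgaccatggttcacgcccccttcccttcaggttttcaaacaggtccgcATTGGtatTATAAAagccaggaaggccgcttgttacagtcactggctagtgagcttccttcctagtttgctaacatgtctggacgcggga
H2bc18: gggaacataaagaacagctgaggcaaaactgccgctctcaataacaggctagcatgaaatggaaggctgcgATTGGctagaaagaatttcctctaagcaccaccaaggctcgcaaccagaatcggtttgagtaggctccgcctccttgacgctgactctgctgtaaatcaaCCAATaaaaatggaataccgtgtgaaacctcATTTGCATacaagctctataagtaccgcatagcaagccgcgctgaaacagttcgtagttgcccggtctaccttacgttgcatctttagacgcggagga
H4c6: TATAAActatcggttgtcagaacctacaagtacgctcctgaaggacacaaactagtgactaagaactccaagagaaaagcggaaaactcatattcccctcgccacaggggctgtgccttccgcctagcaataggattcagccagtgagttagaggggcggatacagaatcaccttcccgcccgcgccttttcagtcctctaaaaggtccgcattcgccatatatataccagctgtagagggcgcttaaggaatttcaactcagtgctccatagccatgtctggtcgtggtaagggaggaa
H2bc9: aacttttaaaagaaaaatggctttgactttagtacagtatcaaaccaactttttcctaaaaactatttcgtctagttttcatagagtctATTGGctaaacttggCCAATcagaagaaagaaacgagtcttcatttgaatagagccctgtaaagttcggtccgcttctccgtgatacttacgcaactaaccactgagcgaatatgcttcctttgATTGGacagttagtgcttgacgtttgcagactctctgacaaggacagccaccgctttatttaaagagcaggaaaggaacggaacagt

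In these windows H4c4 holds a TATA box just before its start and a CCAAT box on the other strand, H4c6 a TATA match at the far end, H2bc18 an octamer and a pair of CCAAT boxes, and H2bc9 3 CCAAT boxes. The octamer, the element through which Oct-1 is known to act on H2B genes, was found in 9 of 26 member windows (34.6%), against 1.74% of all 32851 windows. It was in 4 of 5 H2A and 5 of 8 H2B windows and in 0 of the 6 H4, 5 H1 and 2 H3 windows. The H1 box was in 8 of 26 member windows (30.8%), against 7.18% of all windows. It was in 4 of 5 H1, 2 of 5 H2A and 2 of 8 H2B windows and in 0 of the 6 H4 and 2 H3 windows. TATA was in 61.5% of the member windows, against 13.6% of all, and CCAAT in 84.6%, against 37.4%, with 2 of 6 among H4. Windows of neighbours overlap: H2ac8 and H2bc8 share 279 bases and H2ac1 and H2bc1 share 220, so these pairs count the same matches. Of the H4 genes that followed the number, H4c8 has none of the 4 elements in its window, H4c6 a single TATA match, and H4c4 both TATA and CCAAT.

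The linker histones varied by gene. H1f5 (Hist1h1b) stood at 6.71, 6.79 and 7.48 in CBP_EE, 6.66, 6.65, 6.44, 6.95 and 7.28 in CBP_SC, 6.75, 6.70 and 6.90 in WT_EE, and 6.75, 6.80, 6.80, 7.19 and 7.77 in WT_SC. It was lower in CBP_SC than in WT_SC in 5 of 5 same-numbered pairs, by a log2 difference of -0.27 (SE 0.21, adjusted p = 1.00), and the groups overlapped. Its interaction was the largest of the members at 0.48 (SE 0.34, adjusted p = 1.00). With the array number as a block, the limma SE of that interaction was 0.19 (unadjusted p = 0.0325). H1f2 (Hist1h1c), a linker gene also transcribed in resting cells, averaged 6.85 ± 0.23 in CBP_EE, 6.81 ± 0.22 in CBP_SC, 6.82 ± 0.10 in WT_EE and 6.81 ± 0.27 in WT_SC (SD, n = 3, 5, 3 and 5). These 4 means differed by less than the SD of any group. H1f6 (Hist1h1t), the testis linker, was dim, at 5.37, 5.36 and 5.24 in CBP_EE, 5.27, 5.30, 5.19, 5.36 and 5.31 in CBP_SC, 5.62, 5.31 and 5.42 in WT_EE, and 5.21, 5.24, 5.41, 5.30 and 5.31 in WT_SC. It was 0.16 higher in WT_EE than in WT_SC on the log2 scale (SE 0.068, adjusted p = 0.248), with WT_EE_1 highest. H1f3 was 0.081 higher in WT_EE than in WT_SC (SE 0.037, adjusted p = 0.270), and its full range was 1.13-fold.

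No H2A or H3 member separated the housings within a genotype or the genotypes within a housing. H2aw (Hist3h2a), an H2A gene of the Hist3 cluster, stood at 8.55, 8.65 and 9.29 in CBP_EE, 8.51, 8.50, 8.67, 8.93 and 9.29 in CBP_SC, 8.59, 8.61 and 8.29 in WT_EE, and 8.54, 8.39, 8.49, 8.77 and 9.03 in WT_SC. It had the smallest p of the members that were higher in CBP_EE than in WT_EE, at 0.33 on the log2 scale (SE 0.23, adjusted p = 0.935). That difference rests on the arrays numbered 3: without CBP_EE_3 and WT_EE_3, among arrays numbered 1 and 2, it was 0.00. H2ac1 (Hist1h2aa), the testis H2A, averaged 6.43 ± 0.072 in CBP_EE, 6.44 ± 0.12 in CBP_SC, 6.48 ± 0.18 in WT_EE and 6.45 ± 0.24 in WT_SC. H2ac15 (Hist1h2ak), the H2A gene that followed the number, averaged 6.04, 6.08, 6.42, 6.19 and 6.66 on numbers 1 to 5. The 3 H3 members with their own probe set are all dim. H3c7 (Hist1h3f) varied least, over 1.10-fold, and was -0.038 between enrichment and standard cages, averaged over genotypes (SE 0.025, adjusted p = 0.402). H3c4 (Hist1h3d) was -0.066 between WT_EE and WT_SC (SE 0.072, adjusted p = 0.659). H3c15 (Hist2h3c2) ranged over 1.56-fold. Pairs of genes were also correlated over the 16 arrays, as deviations from each group's mean. The median correlation was 0.71 within H4 (21 pairs, 0.06 to 0.97), 0.64 within H2A, 0.46 within H2B, 0.36 within H1 and 0.24 within H3. All genes were read on the same arrays, so whatever shifts a whole array can enter these correlations.

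Probe sets shared by several histone genes give a second view of H2B, H3 and H4 copies without one of their own. There are 24 sets assigned only to histone genes, 7 of H2B, 10 of H3, 6 of H4 and 1 of H1 and H2B together. No such set is of H2A, and 3 further shared sets that also carry other genes were left out. The 24 sets were tested in a table to which they had been added. None of the 24 differed between groups. All 7 H2B sets differed with the array number (adjusted p 0.000679 to 0.00186), as did 5 of 6 H4 sets, while 0 of 10 H3 sets passed (adjusted p 0.0574 to 0.0962). The median log2 signal of the H4 sets was 8.64, 8.76 and 10.08 in CBP_EE, 8.54, 8.58, 9.84, 9.10 and 10.07 in CBP_SC, 8.73, 8.77 and 9.52 in WT_EE, and 8.54, 8.49, 9.65, 9.07 and 10.10 in WT_SC. That of the H3 sets was 8.28, 8.37 and 9.65 in CBP_EE, 8.22, 8.19, 9.38, 8.57 and 9.59 in CBP_SC, 8.32, 8.51 and 7.89 in WT_EE, and 8.26, 8.12, 9.22, 8.55 and 9.94 in WT_SC. WT_EE_3 was the exception: its H3 sets were the lowest of all 16 arrays, while its H4 sets were at 9.52 and its H2B sets at 7.94, above the arrays numbered 1, 2 and 4. The other 3 arrays numbered 3 had H3 medians of 9.22 to 9.65. The sets of a class read nearly the same genes and are not independent of each other, nor of the members.

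**Figure D4:**
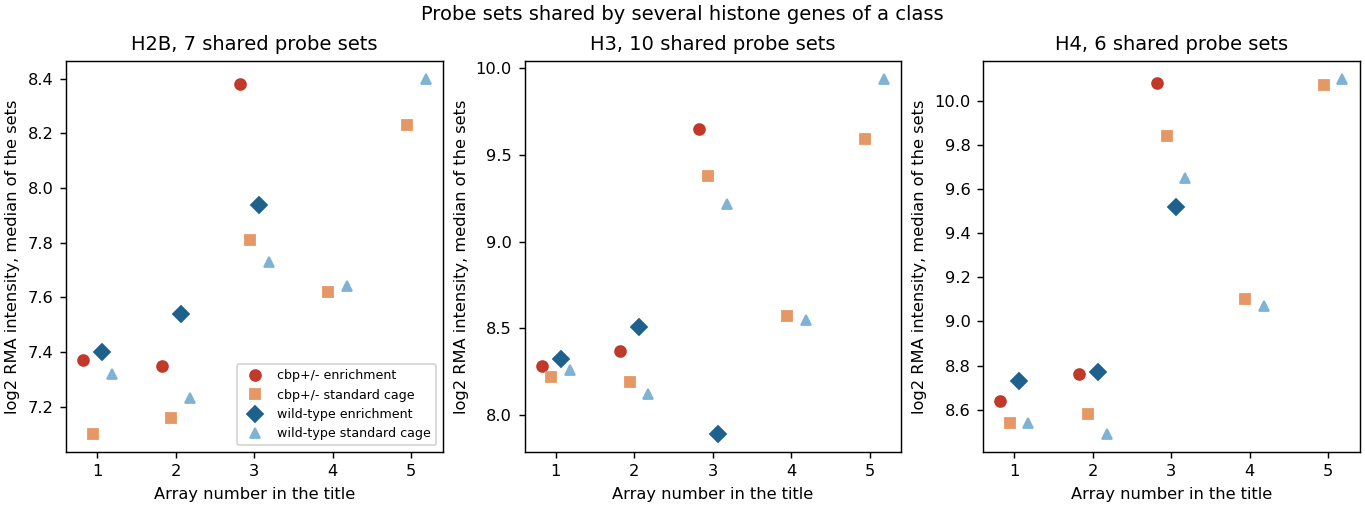
Median log2 RMA intensity (y axis) of the shared H2B, H3 and H4 probe sets on each array, against the array number in the title (x axis), marked by group. In the H3 panel the wild-type enrichment array numbered 3 is at 7.89, below the other arrays of that number at 9.22 to 9.65, and in the H4 panel it is at 9.52.

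Genes that work with the replication-dependent histones were put to the same test. None of 9 replication-independent histone genes passed the test of the number, the lowest adjusted p being 0.0507 for H2az1, which encodes the variant H2A.Z. None of 17 genes of histone mRNA transcription, processing and decay passed, Slbp and Npat included, and 0 of 15 histone chaperone genes did. Of 24 genes of S phase and proliferation 1 passed: Pcna, the sliding clamp of DNA polymerase (adjusted p = 0.0405). In stem and progenitor cell markers 2 of 11 passed, Hes5 (adjusted p = 0.0387) and Vim (adjusted p = 0.0451), and in newborn granule neuron markers 0 of 11. These shares stand beside 7.19% of all probe sets, as the plot of shares shows.

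**Figure D5:**
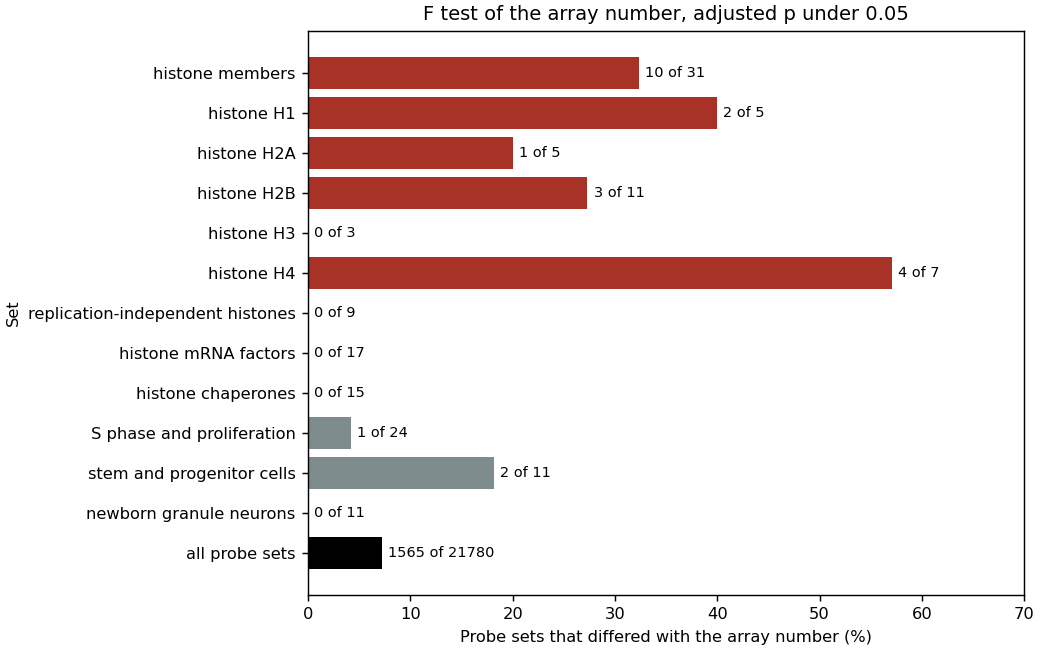
Share of probe sets (x axis, percent) that differed with the array number at an adjusted p under 0.05 in limma's F test, with counts at the bars. Red marks the histone members and their classes, grey the gene lists of the paragraph above, and black all probe sets. The cell type lists of the next paragraph are not drawn, of which endothelial and pericyte markers reached 37.5%. Histone members reached 32.3% and H4 genes 57.1%, beside 7.19% of all probe sets. The test gives each number a single level over both housings.

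Markers of cell types were put to the test of the number as well. Of 8 endothelial and pericyte markers 3 passed, Tek, Flt1 and Pecam1. That share, 37.5%, was above the 32.3% of the histone members and the 7.19% of all probe sets. The level of that list, its median deviation from each gene's mean on the log2 scale, was -0.11 to 0.08 in CBP_EE, -0.18 to 0.12 in CBP_SC, -0.14 to 0.07 in WT_EE and -0.21 to 0.16 in WT_SC. It was lowest on the arrays numbered 3 and 5, at -0.08 to -0.21, and 0.00 to 0.16 on the others. Of 9 microglial markers C1qa and C1qc passed (22.2%), of 11 dentate granule cell markers Dsp and C1ql3 (18.2%), and of 8 astrocyte markers Aqp4 (12.5%). None passed of 12 oligodendrocyte, 10 hippocampal neuron, 9 choroid plexus and 5 blood markers. The choroid plexus level was 0.73 on CBP_SC_3, against -0.17 to 0.03 on the other 15 arrays. The part of these cells in the histone signal was not tested.

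Between the study's groups, the accompanying lists gave no calls either. In the S phase list 19 of 24 genes (79.2%) were higher in CBP_EE than in CBP_SC (median log2 difference 0.030). Between WT_EE and WT_SC 17 of 24 (70.8%) were higher (median 0.045), with 0 past the threshold in either. Over all probe sets 55.0% and 58.4% were higher in these comparisons, with medians of 0.010 and 0.029. Among dim probe sets of any gene it was 69.2% and 86.7%. Cdc6, which loads the replicative helicase, was 0.29 higher on the log2 scale after enrichment, averaged over genotypes (SE 0.084, adjusted p = 0.153). Among the histone mRNA factors Npat, the activator of histone genes in S phase, was -0.25 in that comparison (SE 0.088, adjusted p = 0.180) and Hinfp, which binds H4 promoters, was -0.23 (SE 0.089, adjusted p = 0.199). Slbp was 0.23 higher in CBP_EE than in WT_EE (SE 0.097, adjusted p = 0.924). Among the chaperones Ubn1, a subunit of the HIRA complex, was -0.31 between enrichment and standard cages (SE 0.082, adjusted p = 0.138).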

How the data were processed

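Hippocampal RNA of 16 pools of 4 mice was read on Affymetrix Mouse Gene 1.0 ST arrays. The authors deposited linear intensities for 28815 probe sets on each array (22.12 to 16520.86, 0 missing). Per the submitters' processing notes these come from RMA, and the labels' protocols name GeneSpring GX. The sources used here give no versions and do not say whether a baseline was subtracted before the log was undone. Dim probe sets were kept, since RMA gives no detection call.

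Genes were named through the platform's probe table: 23385 probe sets were in it, 21780 with a single symbol (19936 genes), 1605 with several, and 5430 were unnamed. Members were matched by gene number to RefSeq (GRCm38.p6). Motifs were counted in RefSeq promoter windows.

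Log2 intensities were fitted in R 4.3.3 with limma 3.58.1 (lmFit, eBayes), with a mean for each of 4 groups over all 16 arrays (12 residual degrees of freedom), and Benjamini-Hochberg adjustment over 21780 probe sets at 0.05. Groups and numbers came from the titles. The procedure was checked on simulated data. The F test of the array number was added after seeing the data. The number of arrays limits the precision.

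Members and the 14 lists (177 entries, 159 matched) were chosen with earlier results of these data known. Members were named if they passed a threshold, were among the 3 smallest p per direction and comparison, or were among those set by symbol (H1f2, H2bc4, H2bc21, H2aw, H2bu2, H4f16, H1f6, H2bc1, H2ac1), and list genes if among the 2 smallest p of a comparison. Members, list genes and Slbp or Npat named in the test of the number, the separated H2bc22, H2bc21 and H1f3, and H3c15 were named after their values were seen.

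Same-numbered arrays deviated together between genotypes, with correlations over all probe sets of 0.54 to 0.77 in standard cages and 0.26 to 0.63 after enrichment, so the numbers were taken to pair genotypes. The number as a block changed no genotype call and gave no member an interaction call. The genotype and interaction errors and p given in the Results come from the fit without it, unless the block is named. With the block, H1f5 between CBP_SC and WT_SC was -0.27 (limma SE 0.12, unadjusted p = 0.047). For the interaction with the block, H1f5 was 0.48 (SE 0.19, unadjusted p = 0.0325) and H2bu1-ps -0.18 (SE 0.065, unadjusted p = 0.021). Neither passed the adjusted threshold. H2aw between CBP_EE and WT_EE was 0.33 (SE 0.16, unadjusted p = 0.0611, adjusted p = 0.659). Averaged over housings, H2aw was 0.23 with the block (SE 0.1, unadjusted p = 0.0405, adjusted p = 0.732). Alternatives covered normalization, dim probe sets, array weights, the block, arrays numbered 1 and 2 only, 1 probe set per gene, shared histone probe sets, the variance prior and leaving out each array. Leaving out the arrays numbered 3 and 5 was added after seeing the data.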

Additional observations from a re-analysis of the deposited data

Results flagged for a closer look

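H2bc4 in the standard-cage arrays labelled cbp+/- held a sample far from the others: CBP_SC_5 stood at a log2 signal of 9.45, against 8.38 on the nearest of the other 4 arrays, a gap of 0.718 of the group's range (critical value 0.71 for 5 arrays). This was 1 of 62 such checks over the 31 members in the 2 groups of 5, and chance alone marks about 5% of them. WT_SC_5 stood at 9.37.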

How the results depend on the processing

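Over 27 alternatives per comparison, the members' median difference moved by less than the spread between arrays in all 7 comparisons, but its sign turned in each. Between WT_EE and WT_SC it was -0.032 with quantile normalization and -0.060 with array medians subtracted (-0.042 over all probe sets), and between CBP_EE and WT_EE -0.032 on arrays numbered 1 and 2. The count of members past the threshold stayed at 0 in every alternative for CBP_EE against CBP_SC, both genotype comparisons, the interaction and the genotype average. Between WT_EE and WT_SC it was 3 with array weights (24.1% of all probe sets called), 7 on arrays numbered 1 and 2 only (29.9%) and 2 without the arrays numbered 3 and 5 (8.59%: H2bc9 and H4c3). Averaged over genotypes, enrichment against standard cages gave 6 members with array weights (5 higher, 1 lower; 28.3% of all), 6 on arrays numbered 1 and 2 only (25.1%) and 2 without the arrays numbered 3 and 5 (8.91%). With the replicate block, 1 member passed there, H2bc18 (adjusted p = 0.0307, 1.5% of all), the median was 0.114 (27 of 31 higher), against 0.024 without the block (19 of 31), and all 11 H2B members were higher in either genotype. Over all probe sets, same-numbered enrichment and standard-cage arrays correlated at -0.04 to 0.37 in cbp+/- and -0.39 to -0.01 in wild type, so the numbers were not taken to pair housings. Over the 31 members alone they correlated at 0.44 to 0.75 in cbp+/- and 0.09 to 0.43 in wild type. The block changed no other count, and 0 members passed with it and quantile normalization. Without single arrays these counts stayed at 0 (range 0 to 0).

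The count that followed the array number, 10 as reported beside 7.19% of all probe sets, was 6 of 14 without dim probe sets (12.1% of all), 18 in standard cages only (34.5%), 3, 4, 19 and 5 without the arrays numbered 1, 2, 3 and 5 (1.95%, 1.53%, 27.6% and 2.73%), 4 on arrays numbered 1 to 3 only (0.992%), and 5 to 14 without single arrays (2.89% to 13.7%).

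Many differences changed sign. On arrays numbered 1 and 2, 15 of 31 did between WT_EE and WT_SC, of which H4f16 (0.34, adjusted p = 0.0179) and H4c14 (0.23, adjusted p = 0.0340) passed the threshold, and 13 of 31 averaged over genotypes, of which H4f16 passed (0.27, adjusted p = 0.0147). The differences tracked across settings that changed sign had adjusted p of 0.252 or more there. H4c4 in CBP_EE against CBP_SC was 0.08 with the replicate block, 0.11 with it and quantile normalization, 0.09 on arrays numbered 1 and 2 and -0.66 to 0.19 without single arrays (positive without CBP_SC_3, CBP_SC_5, CBP_EE_1 or CBP_EE_2), and in WT_EE against WT_SC 0.06 with block and quantile normalization and 0.15 on arrays numbered 1 and 2. H3c4 in WT_EE against WT_SC was 0.07 with array weights, 0.03 on arrays numbered 1 and 2 and 0.02 without numbers 3 and 5, and its interaction was 0.00 with weights. In CBP_SC against WT_SC, H1f1 was 0.07 on arrays numbered 1 and 2, and H2ac4 0.05 on those, 0.02 without numbers 3 and 5 and -0.13 to 0.01 without single arrays (0.01 without WT_SC_5). In CBP_EE against WT_EE, H2aw was -0.01 with weights and 0.00 on arrays numbered 1 and 2 or without 3 and 5, H1f6 0.03 with weights, and H2bu2 -0.01 on arrays numbered 1 and 2, without 3 and 5, or without CBP_EE_3 (-0.01 to 0.23 without single arrays). The interaction of H1f3 was 0.00 with quantile normalization, with or without the replicate block, and that of H2ac4 -0.02 on arrays numbered 1 and 2. H4c8 was 0.03 for averaged enrichment on arrays numbered 1 and 2. Averaged over housings, H1f3 was 0.00 and H1f6 0.03 with weights, and H2bc1 -0.08 to 0.01 without single arrays (0.01 without WT_EE_3). The cause was not tested. Signal near background limits what the 17 dim members can show.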
